A study of Mus musculus with 6 samples.

Results

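Extracellular proteolysis was described here through 9 genes, the plasminogen activators Plat and Plau, the urokinase receptor Plaur, the metalloproteinases Mmp2, Mmp9 and Mmp14, and the tissue inhibitors of metalloproteinases Timp1, Timp2 and Timp3. All 9 were taken by gene symbol from the 34745 genes of the expression table. RNA was sequenced from MLE-12 cells, an immortalized mouse lung epithelial line that carries the SV40 large T antigen. The NR4A1 overexpression group (3 libraries) received the pCMV-SPORT6 plasmid holding the open reading frame of the nuclear receptor NR4A1, and the vector control group (3 libraries) received the empty pCMV-SPORT6 plasmid. Both groups were transfected with Lipofectamine, so transfection and plasmid backbone are shared, and the plasmid is a transient, CMV-driven source of the receptor in 1 cell line. The labels do not say whether the libraries of a group came from separate cultures, so that p-values measure the spread between these libraries, which may be technical.

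Plasminogen activators are secreted serine proteases that cleave plasminogen to plasmin, a broad protease which degrades fibrin and activates some latent metalloproteinases. Urokinase does this at the cell surface, bound to its receptor, whereas the tissue-type activator acts mainly on fibrin. Metalloproteinases cut collagens and other matrix proteins, and TIMPs block them in tight complexes. In the lung this balance is known for its part in alveolar remodelling and in fibrosis.

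None of the 9 genes passed the threshold (a difference of 2-fold or more together with an adjusted p below 0.05) between the groups, and in 5 of them (Timp2, Plat, Timp3, Plau and Plaur) the lowest and highest of the 6 libraries were at most 0.71 apart in log2(CPM + 1). The widest of these was Plaur. Timp1, Mmp2 and Mmp14 spanned 4.13 to 5.34 on that scale, with 1 library far above the rest. In NR4A1 overexpression replicate 2 they were 11.3-fold, 9.51-fold and 7.82-fold above the next highest library, and without that library the direction of all 3 log2 fold changes turned from higher to lower. The lower values rested in turn on vector control replicate 1, and with both libraries left out the log2 fold change was -0.076 for Timp1 and -0.035 for Mmp14, while Mmp2 was removed by the filter on low counts. Mmp9, a gelatinase, was all but uncounted, with 1 count in the 6 libraries together.

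Libraries held from 15019038 to 17574340 counts in all. A floor of 3 counts was used, an amount that counting error alone can leave uncounted in a library. It corresponded to 0.171 to 0.200 CPM, a library's count scaled by its total. These limits cover counting error only. Nr4a1 itself was at 3425, 3580 and 3961 CPM in NR4A1 overexpression replicates 1, 2 and 3, against 24.8, 30.4 and 26.2 CPM in the vector controls, with CPM scaled by edgeR's TMM factors. Of the lung epithelial markers, Krt19, Krt8 and Nkx2-1 were counted in every library, with Nkx2-1 between 59.8 and 86.2 CPM. The surfactant gene Sftpc lay between 61.0 and 82.7 CPM. Epcam had only 2 to 22 counts per library, and Cldn18 and Sftpa1 had 0 counts in all 6. The proteoglycan gene Dcn, usually a fibroblast marker, was at 878 to 1031 CPM in every library. NR4A1 overexpression replicate 2 stood apart from the others, with a first principal component score of 57.4 against -20.8 to 2.24, so the tested differences are given with and without it. Vector control replicate 1 was the next highest library on that component.

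Levels per length differed widely between the 9 genes. In the vector controls the mean FPKM (the count scaled by gene length and library total, as the authors deposited it) was 192 ± 3.01 for Timp2, 53.6 ± 1.99 for Plat and 20.2 ± 1.11 for Timp3 (SD, n = 3 each). It was 3.30 ± 1.32 for Timp1, 2.87 ± 0.156 for Plau, 1.34 ± 0.110 for Plaur, 0.825 ± 0.452 for Mmp14 and 0.542 ± 0.855 for Mmp2 (SD, n = 3 each). The ranges of Timp1 and Plau overlapped in the vector controls, and those of Plaur, Mmp14 and Mmp2 all overlapped each other. The order within these sets is thus not resolved by the 3 libraries. Timp2, Plat and Timp3 were each separated from the gene below. Inhibitor transcripts thus far exceeded those of the 3 metalloproteinases, and the summed FPKM of the TIMPs divided by that of Mmp2, Mmp9 and Mmp14 was 77.6, 433 and 280 in vector controls 1, 2 and 3. In the NR4A1 overexpression replicates the same ratio was 254, 10.7 and 307. The lowest ratios of each group belonged to NR4A1 overexpression replicate 2 and vector control replicate 1. These ratios describe the 3 metalloproteinases only. Mmp11, which is not in the sum, was at 21.1, 23.7 and 22.3 FPKM in vector controls 1, 2 and 3. The 3 together were at 2.85, 0.488 and 0.767 FPKM there.

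**Figure D1:**
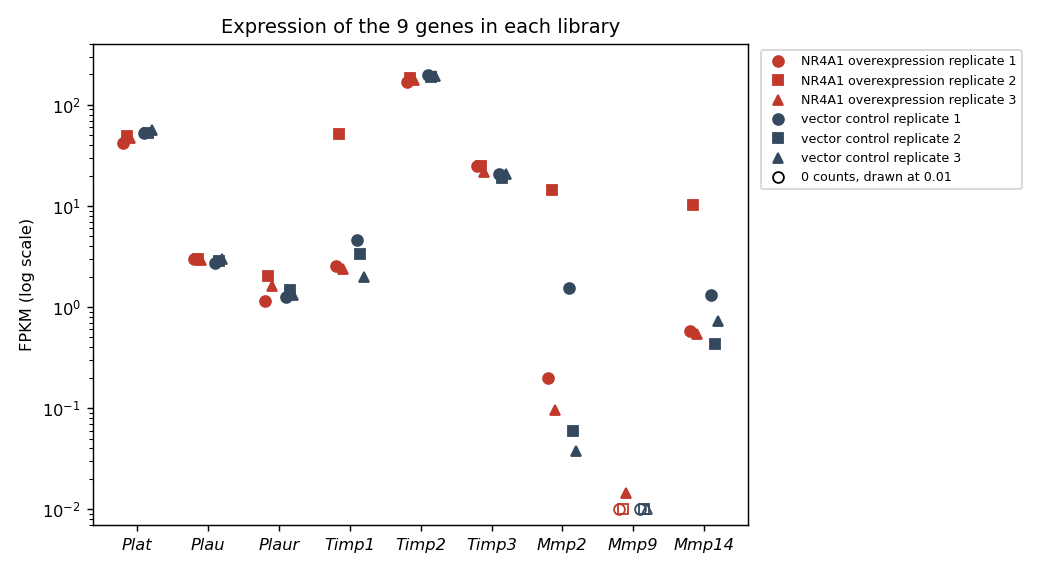
Level of each of the 9 genes as FPKM on a log scale, 1 point per library, red for NR4A1 overexpression and dark blue for vector control, with the replicate given by the shape; libraries with 0 counts are drawn as open symbols at 0.01. Timp2 sits near 192 FPKM in the vector controls, whereas Timp1, Mmp2 and Mmp14 each have 1 point far above the rest, NR4A1 overexpression replicate 2.

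The question put to the 9 genes was whether they differed between cells with NR4A1 overexpression and cells with the empty vector. With edgeR's quasi-likelihood test over 12941 genes, 22 genes (0.17%) passed in the higher direction and 0 (0%) in the lower, and of the 8 members tested 0 passed in either. Mmp9 was removed by the filter on low counts. Without NR4A1 overexpression replicate 2, 25 of 13084 genes (0.191%) passed as higher and 3 (0.0229%) as lower, and again 0 of the 8 members. On the 6 libraries, limma on log2 FPKM also gave 0 of 8 members. DESeq2 gave 0 of the 5 members for which it returned a p, and returned none for Timp1, Mmp2 and Mmp14. At an unadjusted p under 0.05, 1 member of 8 (Timp3) was on the higher side, where 4.02% of all genes were, and 1 of 8 (Plat) on the lower side, where 2.44% were. With at least a 2-fold change asked for as well, 0 members were left, beside 1.11% of all genes on the higher side and 0.131% on the lower. Without NR4A1 overexpression replicate 2, an unadjusted p under 0.05 was reached by 0 of 8 on the higher side (4.78% of all genes) and by Plat on the lower (3.41%). The median log2 fold change of the 8 members was 0.27 against 0.01 over all genes tested, and -0.19 against 0.00 without NR4A1 overexpression replicate 2.

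The tissue-type activator gene Plat (ENSMUSG00000031538; chromosome 8 from 22757744 to 22782847, plus strand, GRCm38) was the more abundant of the activators. It had raw counts of 1611, 2098 and 2064 with NR4A1 overexpression, replicates in order, against 2274, 2213 and 2485 with the empty vector, that is 42.4, 49.0 and 47.0 FPKM against 52.2, 52.7 and 55.9 FPKM. Every NR4A1 library lay below every vector control, and the log2 fold change was -0.20 (standard error 0.0785, 95% interval -0.38 to -0.01), unadjusted p = 0.0409 and adjusted p = 0.740 by edgeR's quasi-likelihood fit. Without NR4A1 overexpression replicate 2 it was -0.24 (adjusted p = 0.571 by the same edgeR fit). A 2-fold reduction lies outside both intervals, the second running from -0.45 to -0.03. The separation of the groups is not rare among these genes, since 6.22% of all genes tested had their 3 NR4A1 libraries below the 3 vector controls, and 6.69% had them above. Of the 8 members, Plat and Timp2 did so in the lower direction and Timp3 in the higher. With NR4A1 overexpression replicate 2 left out, which makes separation easier, the same 3 members were separated and the shares over all genes were 13.8% in each direction.

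Plau, which encodes urokinase (ENSMUSG00000021822; chromosome 14 from 20836662 to 20843388, plus strand), had raw counts of 105, 118 and 119 with NR4A1 overexpression, replicates in order, against 109, 112 and 124 with the empty vector. It was the steadiest of the genes with few counts, and the groups overlapped. Its log2 fold change was 0.07 (95% interval -0.27 to 0.41, adjusted p = 0.972 by edgeR's quasi-likelihood fit), and 0.07 without NR4A1 overexpression replicate 2 (adjusted p = 0.894 by the same edgeR fit). The ratio of Plat to Plau in FPKM was 14.2, 16.5 and 16.1 in the NR4A1 replicates and 19.3, 18.3 and 18.6 in the vector controls. The groups did not overlap in this ratio. As Plau was nearly level, this repeats the separation of Plat, a kind that 6.22% of all genes tested showed in the lower direction. With 3 libraries against 3, an exact test of the ratio could not reach a p under 0.05, and none was made.

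Plaur, the gene of the urokinase receptor (ENSMUSG00000046223; chromosome 7 from 24462484 to 24475968, plus strand), had raw counts of 90, 178 and 145 against 112, 126 and 119. The lowest and the highest library both belonged to the NR4A1 group. The log2 fold change was 0.27 (95% interval -0.25 to 0.80, adjusted p = 0.900 by edgeR's quasi-likelihood fit), and 0.07 without NR4A1 overexpression replicate 2 (adjusted p = 0.912 by the same edgeR fit). Plaur was also the only member whose RefSeq promoter held either of the motifs searched, and the stretch is shown for that reason. It lies in GRCm38 at chr7:24462403-24462432 on the plus strand, with the match to the AP-1 motif TGANTCA in capitals. The match is 69 to 63 bases before the start used for the RefSeq promoter, which is not taken from the gene position above.
Plaur promoter: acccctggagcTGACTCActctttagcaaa
Promoters, from 250 bases before to 50 bases after the start, were at hand for 5 members (Plaur, Timp1, Timp2, Timp3 and Mmp14), and both strands were searched. The NBRE motif AAAGGTCA, to which NR4A receptors bind as monomers, was in 0 of the 5 and in 1.51% of the 32851 mouse promoters of the table. The AP-1 motif, bound by Fos and Jun proteins, was in 7.81% of them. These shares count promoters, which came from 27025 genes, whereas the members are counted by gene. A match is only a string of letters, and its absence refers to these windows and these exact letters alone. Elements that differ from them by a letter were not searched for.

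Timp2 and Timp3, the most abundant inhibitors, were nearly level across the libraries. Timp2 (ENSMUSG00000017466; chromosome 11 from 118301069 to 118355740, minus strand), which also takes part in the activation of Mmp2 on the cell surface, was at 169, 185 and 176 FPKM in the NR4A1 replicates and 195, 189 and 192 FPKM in the vector controls. All 3 NR4A1 libraries were below all 3 vector controls, by a log2 fold change of -0.10 (95% interval -0.27 to 0.06, adjusted p = 0.880 by edgeR's quasi-likelihood fit), and of -0.14 without NR4A1 overexpression replicate 2 (adjusted p = 0.643 by the same edgeR fit). In TMM-scaled CPM the separation was narrow, with 764 CPM in NR4A1 overexpression replicate 2 and 766 CPM in vector control replicate 2. Timp3 (ENSMUSG00000020044; chromosome 10 from 86300372 to 86349506, plus strand), whose product stays bound to the matrix, was at 24.7, 25.0 and 21.5 FPKM in the NR4A1 replicates and 20.9, 18.9 and 20.7 FPKM in the vector controls. Here the NR4A1 libraries were the higher ones, and NR4A1 overexpression replicate 3 was close to the highest vector control. The log2 fold change was 0.26 (standard error 0.0900, 95% interval 0.04 to 0.47), unadjusted p = 0.0240 and adjusted p = 0.671 by edgeR's quasi-likelihood fit. Without NR4A1 overexpression replicate 2 its interval ran from -0.02 to 0.45. For these inhibitors, as for Plat, Plau and Plaur, a 2-fold change lay outside the 95% intervals of the comparison of all 6 libraries.

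Genes of the table that overlap the TIMPs carried few counts. Timp1 lies within Syn1 and Timp3 within Syn3, both on the opposite strand, and Syn1 had 1 to 14 counts and Syn3 0 to 7 counts per library. BC100451, on the same strand as Timp2, had 19 to 46 counts, against 10398 to 13810 for Timp2. The libraries were strand-specific, but the strand setting of the counting is not given in the sources used here.

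Timp1, Mmp2 and Mmp14 behaved differently from the other members. Timp1 (ENSMUSG00000001131; chromosome X from 20870166 to 20874735, plus strand), the secreted inhibitor that is known to respond to inflammatory signals, had raw counts of 53, 1212 and 57 with NR4A1 overexpression, replicates in order, against 110, 76 and 48 with the empty vector. Replicate 2 was the only library above 110 counts. The log2 fold change was 2.54 (standard error 1.19, 95% interval -0.27 to 5.35, adjusted p = 0.796 by edgeR's quasi-likelihood fit), and -0.40 without NR4A1 overexpression replicate 2 (95% interval -1.23 to 0.43, adjusted p = 0.723 by the same edgeR fit). Timp1 made up 19.8% of the summed TIMP FPKM in that library, against 0.919% to 2.09% in the other 5, and Timp2 made up 70.7% against 86.1% to 89.5%.

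Mmp2, or gelatinase A (ENSMUSG00000031740; chromosome 8 from 92827328 to 92853417, plus strand), had raw counts of 9, 739 and 5 with NR4A1 overexpression, replicates in order, against 80, 3 and 2 with the empty vector. Besides replicate 2, vector control replicate 1 stood out, with 25.9 times the CPM of the higher of the other vector controls. The log2 fold change was 3.19 (95% interval -1.31 to 7.68, adjusted p = 0.843 by edgeR's quasi-likelihood fit). It turned to -1.88 without NR4A1 overexpression replicate 2 (95% interval -5.40 to 1.64, adjusted p = 0.698 by the same edgeR fit) and was 6.62 without vector control replicate 1, a value with no use as a size, since the vector controls left had 3 and 2 counts, at or under the floor of 3.

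Mmp14, the membrane-anchored metalloproteinase that activates pro-Mmp2 (ENSMUSG00000000957; chromosome 14 from 54431612 to 54441265, plus strand), had raw counts of 50, 995 and 54 against 131, 41 and 74. The same libraries were again the highest of their groups. Its log2 fold change was 2.21 (95% interval -0.51 to 4.92, adjusted p = 0.829 by edgeR's quasi-likelihood fit), and -0.55 without NR4A1 overexpression replicate 2 (95% interval -1.59 to 0.50, adjusted p = 0.705 by the same edgeR fit). Mmp9 (ENSMUSG00000017737; chromosome 2 from 164940780 to 164955850, plus strand) had 1 count in NR4A1 overexpression replicate 3 and 0 in each of the other 5 libraries. A level up to 3 counts, or 0.171 to 0.181 CPM, could be missed in a vector control.

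**Figure D2:**
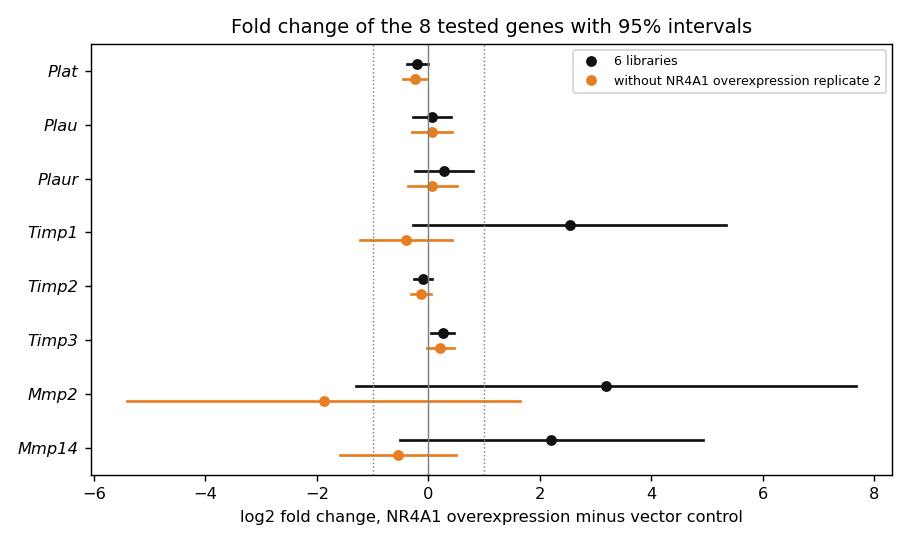
Log2 fold change of the 8 tested genes (horizontal axis, NR4A1 overexpression minus vector control) from edgeR's quasi-likelihood fit, points for the estimate and bars for the 95% interval, in black for 6 libraries and in orange without NR4A1 overexpression replicate 2; dotted lines mark a 2-fold change. Plat, Plau, Plaur, Timp2 and Timp3 have short bars within the dotted lines, and Timp1, Mmp2 and Mmp14 move from 2.54, 3.19 and 2.21 to -0.40, -1.88 and -0.55.

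The high level in NR4A1 overexpression replicate 2 was not shared by all 9 genes. This library was the highest in 5 of the 8 members tested, against 22.7% of all genes tested, and not in Plat, Plau and Timp2. By 5-fold or more it exceeded each of the other libraries in 3 members, Timp1, Mmp2 and Mmp14, against 0.688% of all genes. Of the 5 libraries left without it, vector control replicate 1 was the highest for Timp1, Mmp2, Mmp14 and Timp2, 4 members of 8, as it was for 14% of all genes tested. Many markers of fibroblasts, smooth muscle and endothelium were also highest in NR4A1 overexpression replicate 2, but not all of them shared the high value of vector control replicate 1. Summed over 11 fibroblast markers (Dcn, which was high in every library, was left out after its level was seen), NR4A1 overexpression replicate 2 had 850 CPM, against 12.4 and 22.2 CPM in the other NR4A1 libraries and 68.9, 13.2 and 15.4 CPM in vector controls 1, 2 and 3. Of all 12 fibroblast markers, 10 were highest in NR4A1 overexpression replicate 2, and 8 were highest in vector control replicate 1 among the other 5 libraries. Col1a1 was at 250 CPM in NR4A1 overexpression replicate 2 and 17.5 CPM in vector control replicate 1, and Col1a2 at 268 and 16.4 CPM. With Dcn included the sum was 1729 CPM in NR4A1 overexpression replicate 2 and 920 to 1044 CPM elsewhere.

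The smooth muscle markers, of which Acta2, Tagln and Lmod1 had the highest means over the 6 libraries, summed to 327 CPM in NR4A1 overexpression replicate 2 and to 1.55 to 3.13 CPM elsewhere, with all 8 of the list highest in that library. Vector control replicate 1 had the 3.13 CPM, and was the highest of the other 5 libraries in 4 of the 8. The endothelial markers, of which Egfl7, Eng and Pecam1 had the highest means over the 6 libraries, summed to 157 CPM in NR4A1 overexpression replicate 2 against 14.0 to 17.1 CPM, with 9 of 10 highest there, and 4 of them (Cdh5, Tie1, Kdr and Cldn5) had counts in that library alone. Vector control replicate 1 did not stand out here, with 16 CPM, and was the highest of the other 5 libraries in 2 of the 10. The macrophage and neutrophil markers summed to 5.18 against 1.79 to 3.40 CPM, Cd68 being the most abundant, and S100a8, S100a9, Ly6g and Tyrobp had 0 counts in all 6 libraries. Lung epithelial markers summed to 885 CPM in NR4A1 overexpression replicate 2, within the 762 to 1015 CPM of the others. Krt19 and Krt8 held 482 and 209 CPM of that sum, and single markers went both ways. Of the 12, 2 were highest in that library, Krt18 at 9.77 CPM against 0.113 to 1.22 CPM elsewhere, and Sftpc. Nkx2-1 and Cdh1 were lowest there, at 59.8 and 26.2 CPM. Both were also lower in NR4A1 replicates 1 and 3 than in every vector control, a separation that 6.22% of all genes tested showed. Nkx2-1 was at 64 and 74.6 CPM against 80.5 to 86.2 CPM, and Cdh1 at 31.1 and 29.7 CPM against 34.3 to 35.7 CPM. By edgeR's fit, 3 of 7 epithelial markers tested had an unadjusted p under 0.05 on the lower side, beside 2.44% of all genes. Without NR4A1 overexpression replicate 2 it was 2 of 7, beside 3.41%. In these bulk libraries, fewer cells of a type and less RNA per cell cannot be told apart, and the part of other cell types in the values of Timp1, Mmp2 and Mmp14 was not tested.

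**Figure D3:**
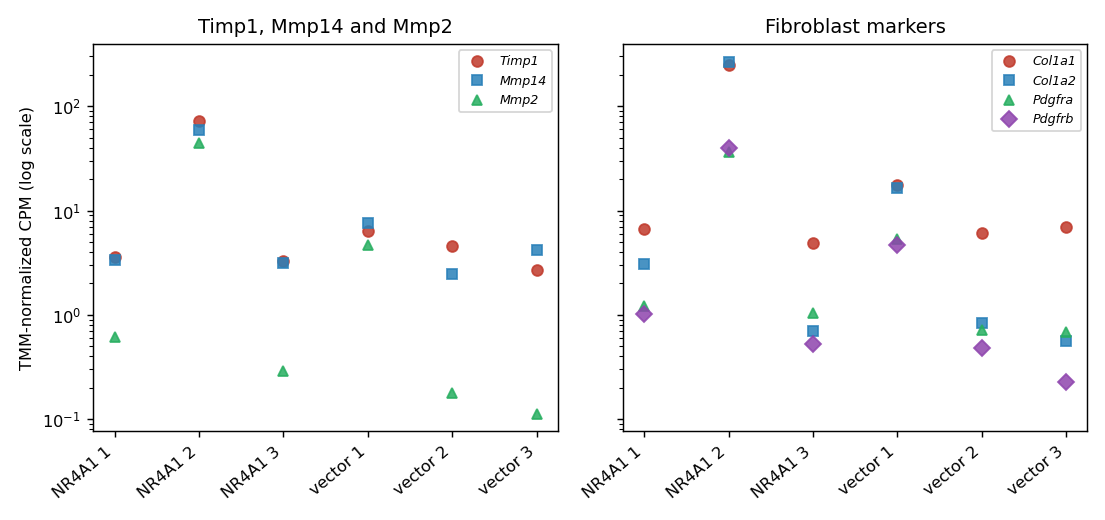
TMM-normalized CPM on a log scale in each of the 6 libraries for Timp1, Mmp14 and Mmp2 (left) and for the fibroblast markers Col1a1, Col1a2, Pdgfra and Pdgfrb (right), where NR4A1 1 to 3 are the overexpression replicates and vector 1 to 3 the controls. In both panels the second NR4A1 library is highest and the first vector control is next, with Timp1 at 72.2 and 6.37 CPM and Col1a1 at 250 and 17.5 CPM in them. Only part of the fibroblast list is drawn, and its markers Dcn and Lum, which were not highest in the second NR4A1 library, are left out. Of the 12 markers, 8 were highest in the first vector control among the other 5 libraries, and those drawn are all among these. Pdgfra and Pdgfrb were also the genes most correlated with Mmp2 over these libraries, so their likeness to it here is no separate evidence.

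The genes whose pattern over the 6 libraries was most like that of Mmp2, by Pearson correlation of log2(CPM + 1) among 12468 genes with a mean of at least 1 CPM, were Pdgfra (r = 0.9995), Pdgfrb (r = 0.9991) and Smoc2 (r = 0.9989). For Timp1 they were Rbms3, Aldh1a1 and Apbb1ip, with r between 0.9964 and 0.9980, and for Mmp14 they were Gria3, Ass1 and Bin1, with r between 0.9949 and 0.9970. In each of these 9 genes NR4A1 overexpression replicate 2 was the highest library, and these correlations over 6 points mostly describe that library.

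Of 16 other genes of the plasminogen system, 15 were in the table, 6 were tested and 0 passed in either direction, with or without NR4A1 overexpression replicate 2. At an unadjusted p under 0.05 Serpini1, which encodes neuroserpin, was the single one and lay on the higher side, where 4.02% of all genes were. The median log2 fold change of the 6 was 0.16, and -0.12 without NR4A1 overexpression replicate 2. Without that library, edgeR's quasi-likelihood fit gave Serpini1 an unadjusted p of 0.00654 on the higher side and Anxa2 one of 0.0271 on the lower. Of all genes, 4.78% and 3.41% were under 0.05 on these sides. Anxa2 and S100a10, which together bind plasminogen at the cell surface, had log2 fold changes of -0.02 and 0.00 in the 6 libraries, and -0.31 and -0.13 without that library. Lrp1, a receptor that clears protease and inhibitor complexes, was at 452 CPM in NR4A1 overexpression replicate 2 and at 171 to 293 CPM elsewhere. Its log2 fold change was 0.32 in the 6 libraries (adjusted p = 0.921 by edgeR's quasi-likelihood fit) and turned to -0.09 without that library (adjusted p = 0.897 by the same edgeR fit). Plg, the plasminogen gene, had 0 counts in all 6 libraries.

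Of 20 other metalloproteinases, 6 were tested and 0 passed in either direction with or without NR4A1 overexpression replicate 2, and 7 had 0 counts in every library. Their median log2 fold change was 0.36, and 0.02 without that library. Mmp11, or stromelysin-3, was the most abundant in CPM, at 90.1, 99.0 and 98.4 CPM in the NR4A1 replicates and 84.7, 94.8 and 89.7 CPM in the vector controls. These ranges overlapped. Mmp15, a membrane-anchored relative of Mmp14, was at 3.92, 6.67 and 4.68 CPM against 2.32, 3.16 and 2.32 CPM. It had no overlap between the groups, as did 6.69% of all genes tested on the higher side. Its log2 fold change was 0.97 (unadjusted p = 0.00825, adjusted p = 0.462 by edgeR's quasi-likelihood fit) and 0.73 without NR4A1 overexpression replicate 2 (adjusted p = 0.553 by the same edgeR fit). Mmp17 and Mmp28 had log2 fold changes of -0.06 and -0.10, and 0.00 and -0.07 without that library. For Mmp11 they were 0.09 and 0.07. Mmp3, stromelysin-1, named after its values were seen, had raw counts of 8, 154 and 0 with NR4A1 overexpression, replicates in order, against 30, 1 and 0 with the empty vector, with the same 3 highest libraries as Mmp2, and was removed by the filter on low counts.

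Among 12 other inhibitors, activators and binding partners, 7 were tested and 0 passed in either direction with or without NR4A1 overexpression replicate 2, with 3 on the higher side at an unadjusted p under 0.05 (Cd44, Pcsk5 and Thbs1, where 4.02% of all genes were) and 2 without that library (Cd44 and Pcsk5, where 4.78% were). The median log2 fold change was 0.08, and 0.01 without that library. Cd44, a hyaluronan receptor that can hold metalloproteinases at the cell surface, was at 110, 110 and 92.9 CPM in the NR4A1 replicates and 71.1, 66.2 and 67.3 CPM in the vector controls. All 3 NR4A1 libraries were above all vector controls, as they were in 6.69% of all genes tested. Its log2 fold change was 0.61 (unadjusted p = 0.000288, adjusted p = 0.0734 by edgeR's quasi-likelihood fit) and 0.57 without NR4A1 overexpression replicate 2 (adjusted p = 0.118 by the same edgeR fit). Thbs1, an adhesive matrix glycoprotein, was at 340 CPM in NR4A1 overexpression replicate 2 and between 31.8 and 41.4 CPM elsewhere, and its log2 fold change was 1.97 with that library and 0.19 without it. Bsg, an inducer of metalloproteinases, and Cd63, a partner of Timp1 at the cell surface, had log2 fold changes of -0.01 and 0.00, and -0.09 and -0.13 without that library. Reck, a membrane-anchored inhibitor, was at 16.5, 20.2 and 18.5 CPM against 18.6, 14.9 and 18.6 CPM, with overlap.

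Of 18 ADAM and ADAMTS proteases, 15 were tested and 0 passed in either direction with or without NR4A1 overexpression replicate 2. In the 6 libraries 0 had an unadjusted p under 0.05, beside 4.02% of all genes on the higher side and 2.44% on the lower. The median log2 fold change was 0.25, and 0.03 without that library. The sheddases Adam9, Adam10, Adam15 and Adam17 were the most abundant, with log2 fold changes of 0.25, 0.23, 0.01 and -0.03 in the 6 libraries and 0.02, 0.30, 0.00 and 0.03 without that library. Adam9 was at 330 CPM in NR4A1 overexpression replicate 2 and at 195 to 228 CPM elsewhere. Adam10 was at 229 CPM in vector control replicate 2 and at 397 to 484 CPM elsewhere, so its fold changes lean on that vector control. In 5 of these 15 genes (Adam19, Adamts1, Adamts2, Adamts5 and Adamts14), NR4A1 overexpression replicate 2 exceeded all other libraries by 2-fold or more, as it did in 2.18% of all genes tested. The aggrecanase Adamts5 was at 0.879, 30.1 and 0.693 CPM in the NR4A1 replicates and 4.75, 0.239 and 0.340 CPM in the vector controls. Its highest libraries were those of Mmp2.

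**Figure D4:**
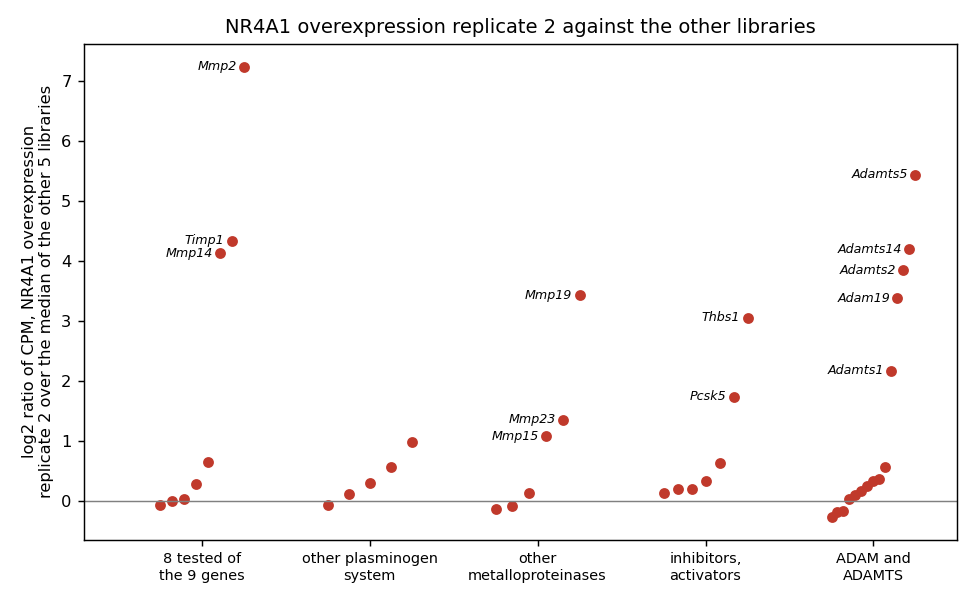
Ratio of TMM-normalized CPM in NR4A1 overexpression replicate 2 to the median of the other 5 libraries, as log2 on the vertical axis, 1 point per tested gene that is reported, by gene list; genes above a 2-fold ratio are named. Many points lie near 0, whereas Mmp2, Adamts5, Timp1, Adamts14, Mmp14, Adamts2, Mmp19, Adam19 and Thbs1 lie far above.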

How the data were processed

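MLE-12 total RNA was sequenced by the authors as strand-specific libraries (TruSeq Stranded Total RNA, Illumina NovaSeq), and the submitters' processing notes name HISAT2 2.0.4 and GRCm38.p4. The counting program and annotation are not given in the sources used here. The authors deposited the raw read count and the FPKM of each gene and library. Over 10738 genes with at least 50 counts everywhere, the deposited FPKM followed the total count of the library within 5.35e-06%. From the counts, TMM factors, edgeR's default filter (filterByExpr) and its quasi-likelihood test were computed over all genes (edgeR 4.0.16, R 4.3.3), p-values were adjusted by Benjamini-Hochberg, and the code was tested on simulated data. A gene passed when it differed by 2-fold or more at an adjusted p below 0.05. A standard error is the absolute log2 fold change divided by the root of F, and the 95% interval uses it with the degrees of freedom of the fit. Totals of 15019038 to 17574340 counts set the precision. No pair of replicates was as alike as counting error allows (chi-square per degree of freedom 9.36 to 41.8). Groups came from the treatment labels and replicate numbers from the titles.

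The members, lists, motifs and tests were chosen with earlier results of these data known. Named were all members, Nr4a1, genes overlapping a member, the 4 most abundant genes and any gene past the threshold of each related list, the 3 most abundant of each marker list, and the 3 genes most like each of the 3 members with the widest range. Serpini1, Plg, Mmp3, Mmp19, Reck, Pcsk5, Sftpc, Epcam, Krt18, Cdh1, Lum, the unexpressed markers, Cdh5, Tie1, Kdr, Cldn5, Adam19 and the ADAMTS genes were added after their values were seen. Alternatives were DESeq2 1.42.0, median-ratio factors, library totals, other count filters, leaving out single libraries, other call rules, a replicate block and limma 3.58.1 on log2(FPKM + 1) and log2(FPKM + 0.1). Leaving out NR4A1 overexpression replicate 2 together with vector control replicate 1 was chosen after the data had been seen. Protein sequences were not used here. A gene of the plasminogen list is not reported here, though it stays in the counts and median of the list.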

Additional observations from a re-analysis of the deposited data

How the results depend on the processing

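Under each of the alternatives run, 0 members passed the threshold, although DESeq2 returned no p for Timp1, Mmp2 and Mmp14, so that its 0 covers the other 5 tested, and 0 genes of the 4 related lists did except with an unadjusted p and at least a 2-fold change, which gave 2 (Pcsk5 and Thbs1). DESeq2 also returned no p for some genes of these lists, among them Thbs1, Adam19, Adamts5 and Adamts14. Plat, Plau, Plaur, Timp2 and Timp3 kept their direction in all 15 alternatives, with adjusted p between 0.488 and 1.0. Timp1, Mmp2 and Mmp14 changed direction without NR4A1 overexpression replicate 2, and with each library left out in turn their log2 fold changes ran from -0.40 to 3.05, from -1.88 to 6.62 and from -0.55 to 2.72. Without that library and vector control replicate 1, Timp1 was at -0.076 and Mmp14 at -0.035, and Mmp2 was removed by the count filter. The number of genes past the threshold, 22 in the comparison of 6 libraries, became 73 with DESeq2, 8 with a mean of at least 10 counts, 7 and 8 with limma on log2(FPKM + 1) and log2(FPKM + 0.1), 161 with an unadjusted p and 47 without NR4A1 overexpression replicate 2 and vector control replicate 1, and the cause was not tested. With each library left out in turn it ran from 3 to 28, being 4 and 3 without NR4A1 overexpression replicates 1 and 3, and 6 without each of the vector controls. The replicate number as a block gave 5. The replicate numbers were not taken as pairs in the comparison of 6 libraries. Deviations from the group means correlated at -0.0111, -0.046 and 0.246 for replicates 1, 2 and 3, and not every library correlated best with its own number. The NR4A1 group mean holds NR4A1 overexpression replicate 2, which stood apart, so these correlations cannot decide whether the libraries were paired. At these totals, members near 3 counts per library, such as Mmp9 and, in vector controls 2 and 3, Mmp2, give no usable fold change.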
